A study of Mus musculus with 7 samples.

Results

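The genes that make steroid hormones and those that inactivate them were examined in whole mammary glands of PRA transgenic and wild-type mice. Members were chosen by gene name alone: the 3-beta, 11-beta and 17-beta hydroxysteroid dehydrogenases (Hsd3b, Hsd11b, Hsd17b), the reductases Srd5a1 to Srd5a3, the Akr1c aldo-keto reductases, all cytosolic sulfotransferases (Sult), the Ugt1a, Ugt2a and Ugt2b glucuronosyltransferases, and Star, Cyp11a1, Cyp11b1, Cyp17a1, Cyp19a1, Cyp21a1, Cyp1b1 and Sts. Those names covered 99 probes for 70 genes, out of 56605 probes for 37074 gene names on the array. No expression value enters that rule.

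Steroid hormones are built from cholesterol, which the carrier Star brings into mitochondria and Cyp11a1 cuts to pregnenolone. Dehydrogenases and cytochromes P450 then give progesterone, glucocorticoids, androgens and estrogens, mostly in ovary and adrenal. Target tissues such as the mammary gland and its fat also convert hormones locally: the dehydrogenases and reductases switch them between active and inactive forms, and sulfation or glucuronidation makes them soluble for removal.

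The study compared 3 wild-type and 4 PRA transgenic glands, 1 animal per array. The mice were nulliparous females of the FVB strain, aged 20 to 25 weeks and killed at diestrus, and 1 abdominal gland was taken from each after its lymph nodes were cut out. The PRA transgenic animals were bigenic: a GAL-4 gene under the murine cytomegalovirus (CMV) promoter, which is not restricted to the mammary epithelium, switched on an additional PR-A gene behind UAS sites, so that the A form of the progesterone receptor predominated. The wild-type animals were littermates without this excess, and the transgenic glands were described as preneoplastic. Gland RNA carried the red dye Cy5 and shared each array with a mouse reference RNA from 11 cell lines in the green dye Cy3, with no dye swap. All values below are log2 ratios of gland over reference unless stated, so a ratio is a level relative to the cell-line pool and not an amount that can be set against another gene's.

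A single slide carried all 7 arrays, with wild-type glands in its upper row and PRA glands in its lower, so the effect of position and that of genotype cannot be told apart. Gland signal was well above background for 62.7 to 66.2% of all probes on wild-type arrays and 56.7 to 60.2% on PRA arrays, and the reference RNA, the same in every hybridization, moved alike, from 53.3 to 54.0% down to 47.2 to 50.6%. Pgr, the gene of the transgene, had ratios of 7.05, 4.30 and 4.04 in wild-type and 5.38, 4.72, 4.49 and 3.32 in PRA glands (log2 fold change -0.65, SE 0.80, limma adjusted p = 0.859), which overlapped. The reference signal of that probe was well above background on no array and differed by 0.69 between genotypes, while gland signal alone gave 0.03. It is the brighter of 2 kept Pgr probes, and the other had a log2 fold change of -0.53. Whether either probe lies in sequence carried by the transgene was not determined, so these values are no measure of transgene expression. Adipocyte markers were high in every gland, 7 of 7 being measured, with mean ratios of 5.58 to 5.93 and 5.71 to 6.33. Skeletal muscle markers, 7 of 8 measured, were high on wild-type 1 and 3 and on PRA 4, with mean ratios of 2.24, 3.24 and 3.02 against -0.35 to 0.05 elsewhere, and T cell markers, 5 of 5 measured, were high on wild-type 1 alone, at 2.13 against -0.71 to 0.18. Macrophage markers, 5 of 5 measured, had a mean ratio of 3.35 on PRA 4 against 2.47 to 2.87 elsewhere, and fibroblast markers, 6 of 6 measured, 2.76 on PRA 4 against 2.20 to 2.27 on the other PRA arrays and 2.27 to 2.79 in wild-type. Whether admixture of those tissues or cells had a part in the values below was not tested. In whole glands, fewer cells of a type and less RNA per cell cannot be told apart.

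A minority of these genes gave a measurable signal in the mammary gland. A probe was kept when its gland signal was well above background in every gland of 1 or both genotypes, and 41 probes of 32 genes were kept. Of the other 38 genes, 28 were dark, that is, without gland signal well above background on any array or with any probe. On single arrays, 42 to 46 of the 99 probes (42.4 to 46.5%) gave such signal in wild-type and 38 to 44 (38.4 to 44.4%) in PRA glands, ranges that overlap. Over all probes of the array the shares were 62.7 to 66.2% and 56.7 to 60.2%. By enzyme class, 3 of 5 genes of cholesterol entry and P450 synthesis, 2 of 7 Hsd3b, 7 of 12 Hsd17b and aromatase, 2 of 3 Srd5a and 1 of 2 Hsd11b genes were kept. For the remaining classes it was 4 of 8 Akr1c genes, Cyp1b1, 7 of 20 sulfotransferase and sulfatase genes and 5 of 12 Ugt genes.

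**Figure D1:**
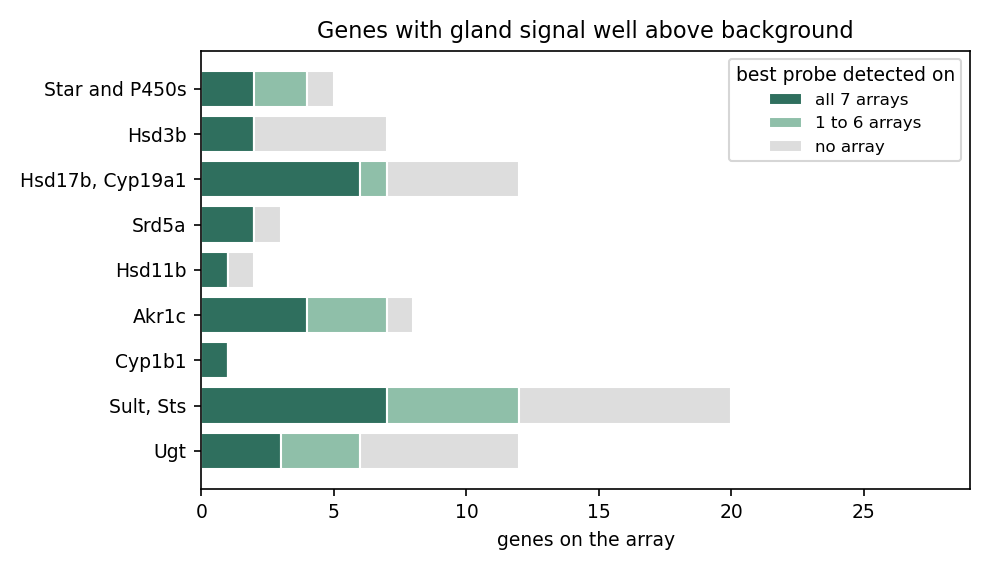
Horizontal bars count the genes of each enzyme class (x axis, genes on the array) by the number of arrays on which the gene's best probe had gland signal well above background: all 7, 1 to 6, or none. The 28 genes detected on no array include 8 of 20 in the sulfotransferase and sulfatase class and 5 of 7 in the Hsd3b class.

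Between genotypes, 1 of the 32 measured genes, the sulfotransferase Sult1c1, was past the threshold used here, an unadjusted limma P under 0.05 and at least 1.5-fold, where 4.06% of all measured genes were. Sult1c1 was higher in PRA glands, and no member was called lower. By probe the count was 1 of 41, where 4.53% of all kept probes were called. After Benjamini-Hochberg adjustment over the 34288 kept probes, limma called 0 member probes at an adjusted p under 0.05 (0.0117% of all kept probes), while 1 was under 0.05 unadjusted in limma and 2 in the methods' t-test. At an unadjusted P under 0.05 alone the members gave 1 gene of 32, where 7.95% of all genes passed. Genotypes did not overlap for 1 gene of 32, where 9.11% of all genes did not. Ratios were higher in PRA glands for 18 of the 32 genes and lower for 14, with a median log2 fold change of 0.04, beside 52.7% higher and a median of 0.01 over all 22503 measured genes. From gland signal alone 9 of the 32 genes had the other sign.

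The 95% interval of the log2 fold change lay within 2-fold in both directions for 22 of the 32 genes (68.8%, and 74.2% of all genes), and within 1.5-fold for 9 (28.1%, and 43.7% of all genes). The pooled SD between glands of 1 genotype ran from 0.12 for Srd5a3 to 0.80 for Sult1a1, with a median of 0.39 beside 0.26 over all genes. The ratios of members therefore varied more between arrays of 1 genotype than those of the typical gene did. That spread includes the reference channel, which for the brighter Sult1a1 probe stood apart on PRA 1. For the widest members a 2-fold difference was not detectable with 3 and 4 arrays.

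**Figure D2:**
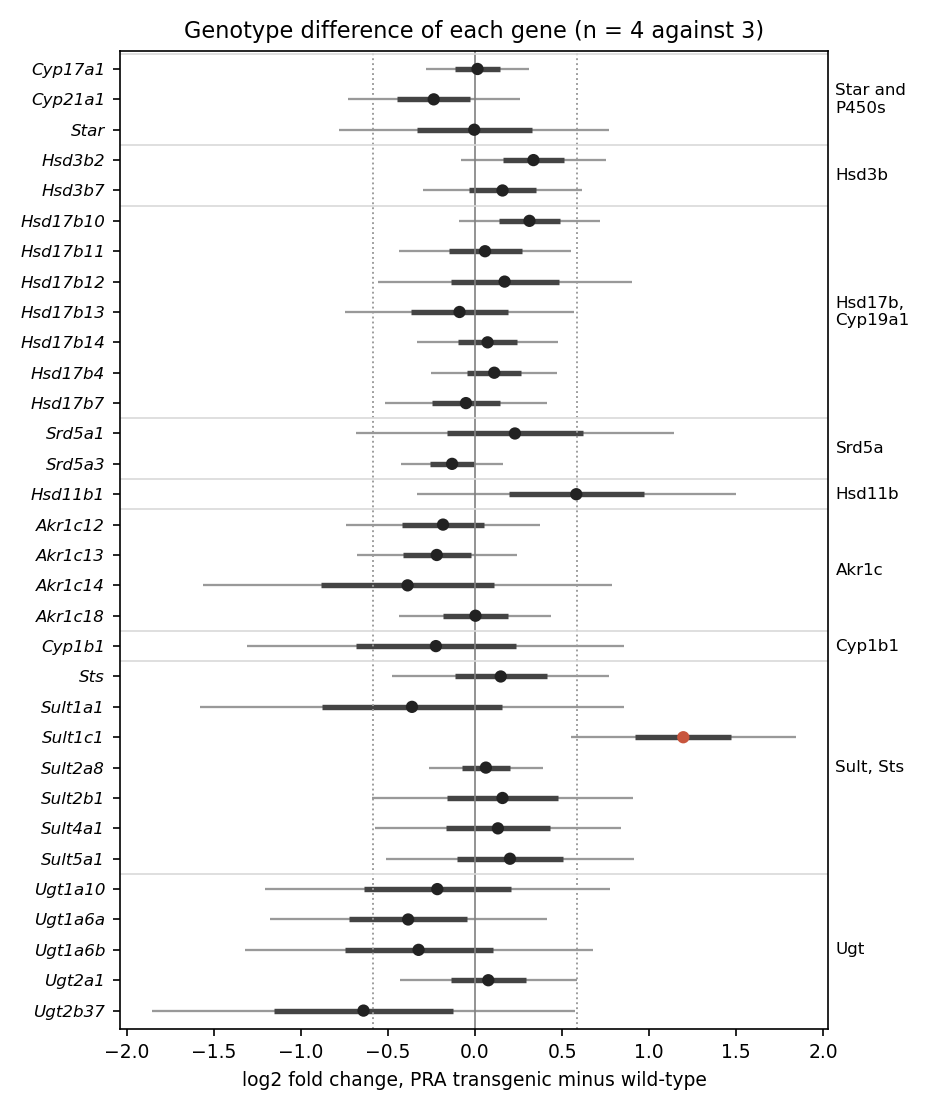
Points give the log2 fold change of each of the 32 measured genes (PRA transgenic minus wild-type, n = 4 against 3), thick bars its standard error and thin bars its 95% interval, with dotted lines at 1.5-fold. Sult1c1, drawn in red because its genotypes did not overlap, is the only gene whose interval leaves 0 out, at 0.55 to 1.84.

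Of the 5 genes for cholesterol entry and the P450 steps, Star, Cyp17a1 and Cyp21a1 were measured. Star had ratios of -0.52, -1.04 and -0.74 in wild-type and -1.19, 0.04, -0.68 and -1.26 in PRA glands. Its PRA ratios spread over a wider range than the wild-type ratios and enclosed all of them (log2 fold change 0.00, SE 0.33, limma adjusted p = 0.999). Star gave low gland signal, 13.7 to 25.9, well above background on all 3 wild-type arrays and 3 of 4 PRA arrays, so it was kept through wild-type alone. Its reference signal was well above background on 3 wild-type and 2 PRA arrays. How far that spread is one of gland levels was not tested.

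Cyp17a1, the hydroxylase and lyase on the way to androgens, was among the steadiest members, at 0.49, 0.44 and 0.66 in wild-type and 0.69, 0.44, 0.43 and 0.63 in PRA glands. The genotypes lay on top of each other, and the 95% interval of the fold change ran from 0.82 to 1.24. Cyp21a1, which leads to corticosteroids, had a log2 fold change of -0.24 (SE 0.21) with its brighter probe and 0.46 with the other, which gave gland signal well above background on 5 of 7 arrays. Gland signal alone turned both, to 0.31 and -0.40, while the reference differed by 0.55 and -0.86. The dimmer Cyp21a1 probe was kept through wild-type alone. Cyp11a1, the side-chain cleavage enzyme, was well above background on 2 wild-type arrays and 1 PRA array with 1 of its probes and on none with the other, and Cyp11b1 on none.

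The 3-beta dehydrogenases, which turn pregnenolone into progesterone, were mostly not measured. All 5 of Hsd3b1, Hsd3b3, Hsd3b4, Hsd3b5 and Hsd3b6 were dark, Hsd3b1 and Hsd3b6 being the gonadal, adrenal and placental forms. Hsd3b7, which belongs to bile acid synthesis and not to hormone synthesis, was measured in every gland, at 1.49, 1.53 and 0.91 in wild-type and 1.58, 1.23, 1.65 and 1.41 in PRA glands. Those ranges overlapped (log2 fold change 0.16, SE 0.19, limma adjusted p = 0.856).

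Hsd3b2 carries 3 probes that disagree in every gland, and their sequences are shown because they decide whether the gene counts as measured. The probe at chr3:98513725-98513784 (mm9) has a mean log2 gland signal of 11.2 and is assigned in the array's annotation to an Ensembl transcript, while the probes at chr3:98515054-98515113 and chr3:98515703-98515762, assigned to the RefSeq transcript of the gene, were well above background on no array in either channel. Bases 1 to 30 of each 60-base probe read as follows, 5′ to 3′.
Hsd3b2, probe with signal: tgaagtatggacactatgcccctccttaga
Hsd3b2, first probe without signal: gcccaatggaagaaacaattatttgtcaat
Hsd3b2, second probe without signal: aagctttgatgatataagttacaccttgag
The probe with signal had ratios of -0.67, -0.45 and -1.07 in wild-type and -0.35, -0.50, -0.54 and -0.20 in PRA glands. Both PRA 1 and PRA 4 were above all wild-type glands and the others were not (log2 fold change 0.34, SE 0.18, limma adjusted p = 0.632). What that probe measures was not settled, so the value is given for the probe and not for the enzyme.

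The 17-beta dehydrogenases, which interconvert estradiol and estrone or strong and weak androgens, and in several cases act on fatty acids, had 7 measured members. Aromatase, Cyp19a1, which makes estrogens, gave no signal well above background in any gland. Neither were Hsd17b1 and Hsd17b2, the forms best known for making and for inactivating estradiol, nor Hsd17b3 and Hsd17b6. The members described next are enzymes with other substrates besides steroid hormones.

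Hsd17b4, the peroxisomal multifunctional enzyme of fatty acid oxidation, had ratios of 1.74, 1.85 and 1.68 in wild-type and 2.20, 1.74, 1.83 and 1.69 in PRA glands. PRA 1 stood above the rest, and the genotypes overlapped (log2 fold change 0.11, SE 0.15, limma adjusted p = 0.882). Hsd17b11, a lipid droplet enzyme that also oxidizes androstanediol, was nearly constant in wild-type glands, at 1.58, 1.53 and 1.55, and spread over 1.64, 1.57, 1.16 and 2.07 in PRA glands. The wild-type values fell inside the PRA range, and the log2 fold change was 0.06 (SE 0.21).

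Hsd17b10, a mitochondrial dehydrogenase that oxidizes steroids and branched fatty acids, had ratios of 0.63, 0.55 and 0.63 in wild-type and 1.11, 0.90, 1.13 and 0.52 in PRA glands. PRA 1 to 3 lay above every wild-type gland and PRA 4 below all of them (log2 fold change 0.31, SE 0.17, limma adjusted p = 0.647). Hsd17b12, the ketoreductase of long-chain fatty acid elongation, which can also reduce estrone, showed the same order in its brighter probe, at 0.97, 0.44 and 0.75 against 1.07, 1.09, 1.33 and 0.07. Its log2 fold change was 0.17 (SE 0.31), and its second probe went the other way, at -0.41 (SE 0.23), so no direction is given for Hsd17b12. Without PRA 4 the log2 fold changes were 0.45 for Hsd17b10 and 0.44 for the brighter Hsd17b12 probe.

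Hsd17b7, which acts in cholesterol synthesis and reduces estrone to estradiol, had ratios of -0.54, -0.31 and -0.45 in wild-type and -0.33, -0.30, -0.32 and -0.99 in PRA glands. PRA 1 to 3 were close together and PRA 4 was alone at the bottom, in both kept probes of the gene, and the log2 fold change was -0.05 (SE 0.20, limma adjusted p = 0.967). PRA 4 was thus the lowest of all 7 glands for Hsd17b7, Hsd17b10 and Hsd17b12 together. On PRA 4 the mean ratios of skeletal muscle, macrophage and fibroblast markers were also higher than on PRA 1 to 3, and their part in these values was not tested.

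**Figure D3:**
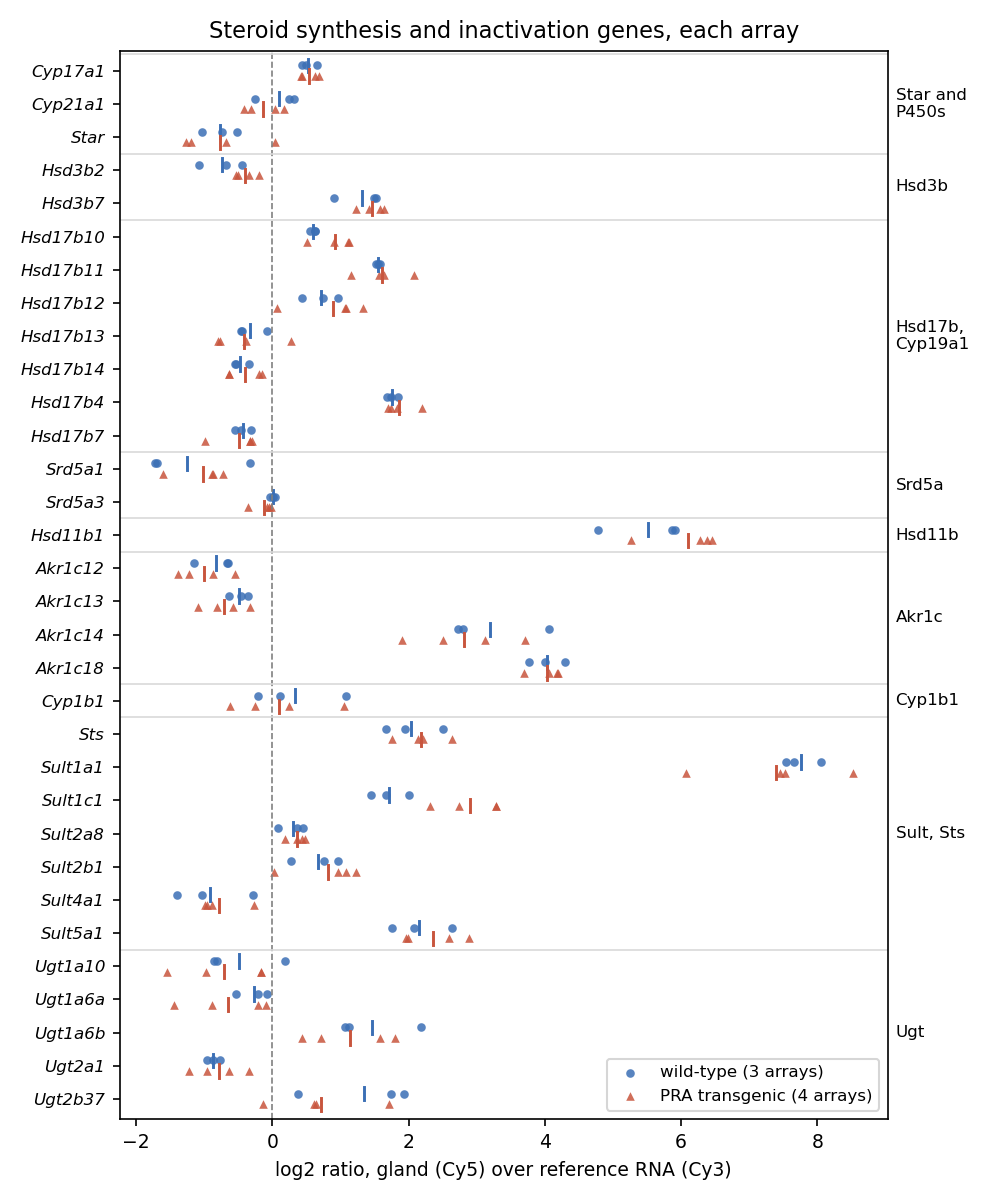
Each row is 1 measured gene, grouped by enzyme class, and each symbol 1 array (x axis, log2 ratio of gland over reference RNA; circles wild-type, triangles PRA transgenic, short lines the group means). Sult1a1 and Hsd11b1 have the highest ratios, up to 8.52 and 6.46, and Sult1c1 is the only row whose circles and triangles do not overlap.

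The reductases Srd5a1 to Srd5a3 turn testosterone into the stronger dihydrotestosterone, and progesterone into its dihydro form, except that Srd5a3 is known for making dolichol for protein glycosylation. Srd5a3 was the member with the smallest spread, at -0.03, 0.01 and 0.05 in wild-type and -0.02, -0.05, -0.35 and -0.08 in PRA glands. PRA 2, 3 and 4 were below all wild-type glands by little, except PRA 3, and the log2 fold change was -0.13 (SE 0.12, limma adjusted p = 0.803). The prostatic form Srd5a2 was dark in all 7 glands.

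Srd5a1, the form of most other tissues, was below the reference in every gland, at -1.69, -1.73 and -0.33 in wild-type and -1.61, -0.73, -0.88 and -0.87 in PRA glands. Wild-type 3 was the highest of all, and the log2 fold change of 0.23 (SE 0.39, limma adjusted p = 0.909) became 0.69 without it, past the unadjusted threshold (limma adjusted p = 0.646), and -0.01 without wild-type 2. A second Srd5a1 probe was well above background on all 3 wild-type arrays and on none of the 4 PRA arrays, the only member probe with such a split. It was kept through the wild-type group alone. Its ratios were -1.98, -2.41 and -1.25 in wild-type and -3.49, -2.76, -1.87 and -1.91 in PRA glands. These overlapped, with PRA 3 and 4 above wild-type 1 and 2 (log2 fold change -0.63, SE 0.46, limma adjusted p = 0.739). Set against the dimmest measurable signal of each PRA array, or its own signal where higher, mean gland signal was 1.28-fold lower in PRA glands. The filter kept this probe through its brighter group, so no minimum difference is drawn from that value. With normexp and loess the log2 fold change was -0.10, under 1.28-fold, and the brighter probe had the other sign, so no direction is given for Srd5a1. The 2 probes lie at chr13:69712376-69712435 and chr13:69749409-69749468 (mm9), and bases 1 to 30 of each are shown because they disagree.
Srd5a1, brighter probe: agaggaatcttgtcttaacactatactcta
Srd5a1, probe measured in wild-type alone: tggtatgaatctttcccaggaggtgttatg

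Of the 2 genes that activate and inactivate glucocorticoids, 1 was measured. Hsd11b1, which regenerates active corticosterone and is typical of fat and liver, had ratios of 5.86, 4.77 and 5.91 in wild-type and 6.46, 6.28, 6.38 and 5.27 in PRA glands. PRA 1 to 3 were above every wild-type gland, while PRA 4 was below wild-type 1 and 3. The log2 fold change was 0.58 (SE 0.39, 95% interval -0.33 to 1.50, limma adjusted p = 0.711), with 0.86 without PRA 4 (unadjusted P = 0.0364, adjusted p = 0.378) and 0.21 without wild-type 2. Adipocyte markers on PRA 4 had a mean ratio of 5.95, within the range of the other PRA glands. Skeletal muscle, macrophage and fibroblast markers had higher mean ratios on PRA 4 than on PRA 1 to 3, at 3.02, 3.35 and 2.76. Whether tissue content had a part in the Hsd11b1 values was not tested. Hsd11b2, the inactivating partner of kidney and other mineralocorticoid targets, was dark in all 7 glands.

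The Akr1c enzymes reduce ketones on the steroid and so lower the activity of progesterone or dihydrotestosterone. Akr1c18, which inactivates progesterone, was well above the reference in all glands, at 4.30, 3.77 and 4.01 in wild-type and 4.06, 3.69, 4.19 and 4.18 in PRA glands. The genotypes coincided, with a log2 fold change of 0.00 (SE 0.19, limma adjusted p = 0.999) and a 95% interval of 0.74 to 1.36 for the fold change.

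The ratio of Akr1c18 conceals a spread in its channels. The gland signal, as log2 minus the array's 75th percentile, was 2.22, 1.02 and 0.31 in wild-type and -0.44, 0.48, -0.10 and 1.20 in PRA glands. The reference signal of the same spots ran beside it, at -2.07, -2.74 and -3.69 against -4.48, -3.19, -4.28 and -2.96. From gland signal alone the log2 fold change was -0.90 (SE 0.53, limma adjusted p = 0.676), and from the reference, which is 1 RNA, it was -0.89 (SE 0.53, adjusted p = 0.631). The gland value of Akr1c18 thus depends on whether the ratio or the single channel is read, and the reference was well above background on 5 of 7 arrays.

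Akr1c14, which reduces dihydrotestosterone to a weaker androgen, varied from animal to animal, at 4.07, 2.79 and 2.73 in wild-type and 3.12, 2.50, 1.91 and 3.71 in PRA glands. The highest value was wild-type 1 and the next PRA 4, and the log2 fold change was -0.39 (SE 0.50, limma adjusted p = 0.868) and 0.05 without wild-type 1. Akr1c12 and Akr1c13, a pair of closely related reductases, were below the reference in every gland, with log2 fold changes of -0.18 (SE 0.24) and -0.22 (SE 0.20), and the accessions given for the Akr1c12 probe match both names in RefSeq. For the other 4 genes, Akr1c6, Akr1c19, Akr1c20 and Akr1c21, gland signal was above background on 3 arrays at most.

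Cyp1b1, which hydroxylates estradiol to catechol estrogens, had ratios of 0.12, -0.22 and 1.09 in wild-type and -0.62, 1.05, 0.25 and -0.26 in PRA glands. Each genotype held 1 gland above 1, with the rest lower (log2 fold change -0.22, SE 0.46, limma adjusted p = 0.931).

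Sulfotransferases attach sulfate to steroids and phenols, and the sulfatase Sts removes it again, so that the balance sets how much free hormone a tissue holds. Sts was measured in every gland, at 1.95, 2.50 and 1.68 in wild-type and 2.14, 2.22, 1.76 and 2.64 in PRA glands. These ranges overlapped almost wholly (log2 fold change 0.15, SE 0.26, limma adjusted p = 0.915). The estrogen sulfotransferase Sult1e1, by contrast, was dark in all 7 glands.

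Sult1c1, a cytosolic sulfotransferase of the subfamily that acts on phenol compounds, was the 1 member past the threshold. Its ratios were 2.00, 1.45 and 1.67 in wild-type and 3.28, 3.28, 2.73 and 2.32 in PRA glands, so all 4 PRA glands exceeded all 3 wild-type glands. The log2 fold change was 1.20 (SE 0.28, unadjusted P = 0.00318), and the limma adjusted p of 0.362 did not pass. Its single probe lies at chr17:54103972-54104031 (mm9), and bases 1 to 30 are shown as the sequence on which the call rests.
Sult1c1: tctcaagaatgaataaaatgctgcctgacc

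Both channels of that spot moved, in opposite directions. The gland signal, as log2 minus the 75th percentile, was -1.65, -1.60 and -1.74 in wild-type and -0.91, -1.26, -0.74 and -1.19 in PRA glands. Here too all PRA glands were above all wild-type glands, with a log2 fold change of 0.64 (SE 0.16, unadjusted P = 0.00398, limma adjusted p = 0.382). The reference signal was -3.65, -3.04 and -3.40 against -4.17, -4.53, -3.46 and -3.49, a difference of -0.55 (SE 0.31) in an RNA that was the same on every array, and it was well above background on the 3 wild-type arrays and on none of the PRA arrays. The log2 fold change of 1.20 was therefore made up of 0.64 from the gland and 0.55 from the reference, nearly in equal parts, and with normexp background correction and loess it was 0.54, under 1.5-fold.

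**Figure D4:**
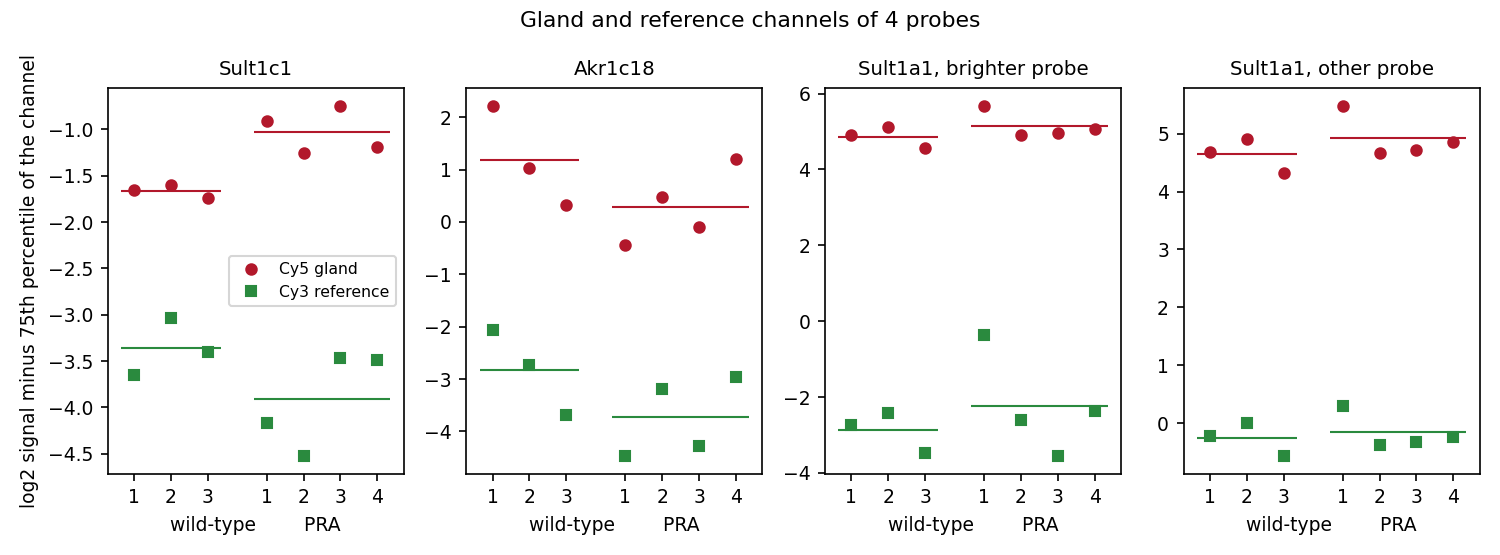
Circles give gland (Cy5) and squares reference (Cy3) signal on each array for the probes of Sult1c1, Akr1c18 and Sult1a1, as log2 signal minus the channel's 75th percentile (y axis, its range differs by panel), with lines at the group means. For Sult1c1 the gland values rise from a mean of -1.66 to -1.03 as the reference mean goes from -3.36 to -3.91. For Akr1c18 the group means of both channels are lower in PRA arrays by about the same amount, while the values of single arrays overlap.

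Sult1a1, the main phenol sulfotransferase, had the highest ratio of all members and 2 probes that gave different pictures. With the brighter probe the ratios were 7.66, 7.54 and 8.05 in wild-type and 6.07, 7.52, 8.52 and 7.45 in PRA glands. PRA 1 was the lowest and PRA 3 the highest, and the log2 fold change was -0.36 (SE 0.52, limma adjusted p = 0.884). With the other probe they were 4.92, 4.91 and 4.91 in wild-type and 5.22, 5.06, 5.05 and 5.12 in PRA glands.

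The second set did not overlap, though the difference was small (log2 fold change 0.20, SE 0.11, limma adjusted p = 0.634). From gland signal alone the log2 fold changes were 0.28 and 0.29. Gland signal of the 2 probes ran in parallel across arrays, at 4.56 to 5.68 and 4.33 to 5.49 above the 75th percentile, with PRA 1 highest in both. The reference signal set them apart: on PRA 1 it was -0.36 with the brighter probe and -2.37 to -3.56 on the other arrays. Without PRA 1 the log2 fold change of the brighter probe was 0.08. The probes overlap at their ends, at chr7:133816605-133816664 and chr7:133816657-133816716 (mm9). Bases 1 to 30 of each are given as the pair whose ratios, though not gland signals, differ in direction over all 7 arrays.
Sult1a1, brighter probe: aaatatgagtggatatggctatactgggaa
Sult1a1, other probe: gatgcccactatgccaagataatgacaggt

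Of the other sulfotransferases, Sult5a1 had ratios of 2.63, 2.08 and 1.76 in wild-type and 2.59, 1.99, 1.97 and 2.89 in PRA glands, which overlapped (log2 fold change 0.20, SE 0.30). Sult2b1, which sulfates cholesterol, was at 0.97, 0.27 and 0.76 and at 1.08, 1.22, 0.96 and 0.02, with PRA 4 again lowest. Sult2a8 and Sult4a1 gave log2 fold changes of 0.06 (SE 0.14) and 0.13 (SE 0.30). Sult1c2 was the reverse of the measured genes, since its reference signal was well above background on all 7 arrays and its gland signal on none.

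The Sult2a genes, hydroxysteroid sulfotransferases of liver, were not measured apart from Sult2a8, and some of their probes are nearly alike. Ungapped alignment matched 54 bases between the Sult2a1 and Sult2a2 probes and 51 between those of Sult2a1 and Sult2a4. The stretch with the most differences between Sult2a1 and Sult2a2, bases 4 to 33 and 5 to 34 of the probes, is given with the 5 differing bases in capitals.
Sult2a1: ctgttgttGtGtatcttgaatacctAGatG
Sult2a2: ctgttgttCtAtatcttgaatacctGAatA

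Glucuronosyltransferases add glucuronic acid to steroids, bilirubin and drugs. The Ugt1a genes share their last exons, and the probes of Ugt1a6a and Ugt1a10 and the brightest probe of Ugt1a6b match several Ugt1a names in RefSeq, so they are read together. The brightest Ugt1a6b probe had ratios of 1.06, 2.18 and 1.13 in wild-type and 1.80, 0.43, 0.71 and 1.59 in PRA glands. Wild-type 2 was highest and PRA 2 lowest, and the same glands were highest and lowest with the Ugt1a10 probe, at -0.81, 0.19 and -0.86 against -0.16, -1.54, -0.97 and -0.16.

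Log2 fold changes were -0.32 (SE 0.43) for Ugt1a6b, -0.22 (SE 0.42) for Ugt1a10 and -0.38 (SE 0.34) for Ugt1a6a, with limma adjusted p of 0.870, 0.923 and 0.786. The Ugt1a6a probe was dim, with gland signal well above background on 3 wild-type and 2 PRA arrays and reference signal on 4 arrays. It was kept through wild-type alone, so its value is not set level with the other 2. The other 2 Ugt1a6b probes, which match that name alone, were at -0.09 and 0.07. Ugt2a1, the olfactory form, had ratios of -0.96, -0.76 and -0.88 in wild-type and -1.22, -0.64, -0.96 and -0.34 in PRA glands, so that the wild-type values lay within the PRA range (log2 fold change 0.08, SE 0.22).

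Ugt2b37 was the sole Ugt2b gene to pass the filter, at 1.93, 1.75 and 0.38 in wild-type and 1.71, 0.65, -0.13 and 0.61 in PRA glands. Its gland signal was well above background on all 3 wild-type arrays but not on every PRA array, so it was kept through wild-type alone. Its log2 fold change of -0.64 (SE 0.52, limma adjusted p = 0.764) was the lowest of all members, and no direction is drawn from it. Its reference signal was well above background on 1 array, and gland signal alone gave 0.73, the other direction. Its probe matches that of Ugt2b5 at 46 bases, while Ugt2b5 was dark on every array in both channels. Bases 29 to 58 of the Ugt2b37 probe and 24 to 53 of the Ugt2b5 probe are shown, with the 6 differing bases in capitals.
Ugt2b37: AatttatgaGccaccttctaaacactGATT
Ugt2b5: TatttatgaAccaccttctaaacactTGAC
Ugt2b34 resembled Sult1c2, with reference signal well above background on all 7 arrays and gland signal on 1.

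Most of the 58 member probes that were not kept were dark in both channels. Neither channel was well above background on any array for 44 member probes in 38 genes. These are not the 38 genes without a kept probe, since measured genes such as Hsd3b2 and Srd5a1 are among them through other probes. Of the 308 values of the 44 probes, 66.6% had a substitute signal in both channels, put in by the scanner software for spots it could not tell from background. The share was 52.3 to 59.1% on a wild-type array and 63.6 to 86.4% on a PRA array. Ratios of such spots carry no level. For 3 of the 44 the genotypes did not overlap, all lower in PRA arrays, and for 0 were they higher, while among all 15003 probes this dark 3.78% were lower and 3.56% higher. If no filter on signal was set, 5 member probes were past the threshold, 4 of them lower, of which 3 were dark in both channels throughout. The share of all unfiltered probes past the threshold is not given here, so that count is not read as a result about the members.

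Among genes around the pathway, few differed. Of 43 further genes for cholesterol transport and cofactors, regulators, other steroid P450s and reductases, sulfate and glucuronate supply, and steroid carriers, 33 were measured and 2 were past the threshold, both lower in PRA glands, where 2.55% of all genes were called lower. Cyp7b1, which hydroxylates oxysterols and dehydroepiandrosterone, had ratios of 5.59, 4.65 and 4.82 in wild-type and 3.82, 4.11, 3.54 and 4.05 in PRA glands. All PRA glands were below all wild-type glands (log2 fold change -1.14, SE 0.26, limma adjusted p = 0.359), but its reference signal was well above background on no array and gland signal alone gave -0.39.

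Cyp26b1, better known for breaking down retinoic acid, was at 0.98, 2.53 and 0.42 in wild-type and 0.25, -0.69, -0.44 and 0.61 in PRA glands. PRA 4 exceeded wild-type 3, and wild-type 2 was far above the rest (log2 fold change -1.38, SE 0.54, limma adjusted p = 0.524). Without wild-type 2 the log2 fold change was -0.76, and the call was lost without wild-type 1 or 2, without PRA 1, 2 or 3, and in the methods' t-test. Both channels were well above background throughout, and gland signal alone gave -1.57. Markers of ovary and adrenal, given since both organs make steroids, were measured for 3 of 5 genes, Nr5a1, Inha and Mc2r, with Lhcgr well above background on no array and Cyp11b2 on 1. The summed gland signal of the 3 was 835 to 2029 in wild-type and 1040 to 1632 in PRA glands. That sum is not scaled between arrays, so it is no measure of how much of either organ a sample held.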

How the data were processed

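Gland RNA from 7 mice (3 wild-type, 4 PRA transgenic) was hybridized by the authors to 2-colour Agilent mouse arrays against a common reference. The deposited scanner files hold processed intensity per spot after background subtraction and dye normalization by Feature Extraction (version 11.5.1.1 per the file headers, 12.0 per the submitters' processing notes). The deposited series table holds log2 ratios centred per probe and was used as an alternative. Coordinates are mm9, as the files give them. Here, log2(Cy5/Cy3) was averaged over spots of 1 probe, without control and outlier spots, for 56605 probes. A probe was kept if Feature Extraction marked its Cy5 signal as well above background in every gland of 1 or both genotypes (34288 probes), and each gene was read from its kept probe with the highest mean Cy5. Genotypes were compared with limma 3.58.1 (R 4.3.3), with no covariate and Benjamini-Hochberg adjustment over kept probes, and 95% intervals took limma's moderated standard errors. For 40 kept probes a value was missing on an array. The script was tested on simulated data. Arrays give no read depth: their number, 7, limits precision. The p-values rest on the spread of ratios between arrays of 1 animal each, which includes the reference channel.

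Names came from the files, and 87 of the 99 probes matched a RefSeq accession. Sequences are those of the scanner files, limited to 30 bases of each 60-base probe. Genes named are those past the threshold, with a probe measured in 1 genotype alone, well known in the pathway, or with the 5 highest or lowest wild-type ratios, besides Pgr; Cyp21a1, Hsd17b3, Hsd17b6, Ugt1a6b, Ugt2b37 and other members were added after their values were seen. The rule for members uses names alone, but members and lists were chosen with earlier results of these data known. Alternatives were normexp (offset 50) with loess, the series table, no filter, both channels well above background, Cy5 alone, quantile scaling, the methods' t-test, a replicate block, the median over probes, and leaving out each array.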

Additional observations from a re-analysis of the deposited data

Results flagged for a closer look

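Among the 23 genes with a PRA group of 4 arrays examined for a single outlying value, 2 stood out, and chance alone gives about 1.15. For Hsd17b7 the gap between PRA 4 (-0.99) and the nearest PRA gland was 0.962 of the group's whole range, more than Dixon's critical value for 4 samples. For Hsd11b1 the gap between PRA 4 (5.27) and the nearest was 0.846 of the range. Both outlying values were the lowest of their group and came from the same gland.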

How the results depend on the processing

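Counts past the unadjusted threshold rested on few probes and moved with the processing. Of member genes (1 in the main setting), 0 were called with normexp and loess, 4 with no filter, 0 with both channels well above background and 3 with the replicate block, and leaving out 1 array gave 1 to 2. Of member probes (1), the counts were 0, 5, 0, 4 and 1 to 2. Of the other pathway genes (2), they were 1 with normexp and loess, 4 with no filter, and 1 each with both channels well above background, with Cy5 alone and with the methods' t-test, while leaving out 1 array gave 1 to 3. With both channels required 25 member genes were tested and Sult1c1 was not among them. Shares over all genes or probes are not given for the alternatives, so these counts show only how the calls move with processing. The extra calls came with the replicate block for Hsd11b1 (0.86) and Akr1c14 (-0.69), without PRA 4 for Hsd11b1 (0.86), and without wild-type 3 for Srd5a1 (0.69). The replicate block pairs samples by a number only: deviations of same-numbered samples correlated at 0.10, -0.30 and 0.04, so the numbers do not pair them. No member probe reached an adjusted p under 0.05 in any setting fitted by probe. Sult1c1 kept its direction in all 15 alternatives that tested it, between 0.54 and 1.39, and its call in all but normexp and loess. Akr1c14 ran from -0.69 to 0.05 (without wild-type 1), Hsd11b1 from 0.21 (without wild-type 2) to 0.86, and Akr1c18 from -0.90 (Cy5 alone) to 0.14. The median log2 fold change of the members was -0.03 with the replicate block. Signal over background limits the rest: 45 of the 99 member probes were not well above background in any gland.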
